A study of Mus musculus with 16 samples.

Results

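The interferon response and antigen presentation genes are a set of 37 transcripts chosen by name, among them the classical interferon-induced genes, the factors that sense viral RNA and carry the interferon signal, and the machinery that loads peptides onto class I molecules. All 37 were among the 12618 genes of the deposited table. They were measured by mRNA sequencing of flash-frozen mouse liver in 2 groups, 8 livers labelled Cyp7a1 CRISPR and 8 labelled control CRISPR, all from mice on a Western diet for 8 weeks. The enzyme encoded by Cyp7a1 sets the rate at which cholesterol is turned into bile acids. The labels used here give no strain, sex, age, CRISPR vector or promoter. Nor do they state that every library came from an animal of its own, and the p-values therefore cover the spread among these samples, which may be partly technical.

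Interferons are secreted proteins, and cells make those of type I when pattern receptors such as MDA5 and RIG-I bind viral nucleic acid. Type I interferon acts through a receptor whose signal reaches genes carrying an interferon-stimulated response element, with STAT2 and IRF9 among the factors that bind there, while interferon gamma induces IRF1 and is a strong inducer of antigen presentation. In liver, hepatocytes respond to both, and Kupffer cells, dendritic cells and endothelial cells add their own share of these transcripts.

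Libraries held 19.6 to 27.4 M recovered reads in Cyp7a1-labelled livers and 13.8 to 25.4 M in control livers (M, 1e+06 reads), Control 38 being the least deep. The 11 hepatocyte markers found took 9.16% to 12.02% of each library's normalized counts. The targeted transcript was not lower in the Cyp7a1-labelled libraries. Cyp7a1 had 3069 to 5873 normalized counts in Cyp7a1-labelled livers, against 2148 to 5642 in control livers (log2 fold change 0.43, limma adjusted p = 0.227). A transcript level says nothing of edits within the transcript. The group is therefore named by its label, and each direction below rests on that label.

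Of the 37 members 5 passed the threshold, 3 upwards and 2 downwards, and 32 did not. Usp18, Ifih1 and Trim25, which act in sensing the signal or damping it, were higher in Cyp7a1-labelled livers. Psmb9 and Tap1, which make and transport peptides for class I molecules, were lower. The 16 antiviral effectors and other induced genes had 0 members past the threshold by limma, and 0 by edgeR and by DESeq2. By limma 1 had an unadjusted p under 0.05, beside 2589 of all 12617 genes tested. Over the set, 3 of 37 members were higher, where 3.07% of all 12617 genes tested were, and 2 were lower, where 3.05% were (limma on log2(normalized count + 1), Benjamini-Hochberg adjusted p under 0.05). Together that is 13.5% of members, beside 6.12% of all genes called in either direction. The median log2 fold change was 0.03 over the members and 0.0034 over all genes tested.

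**Figure D1:**
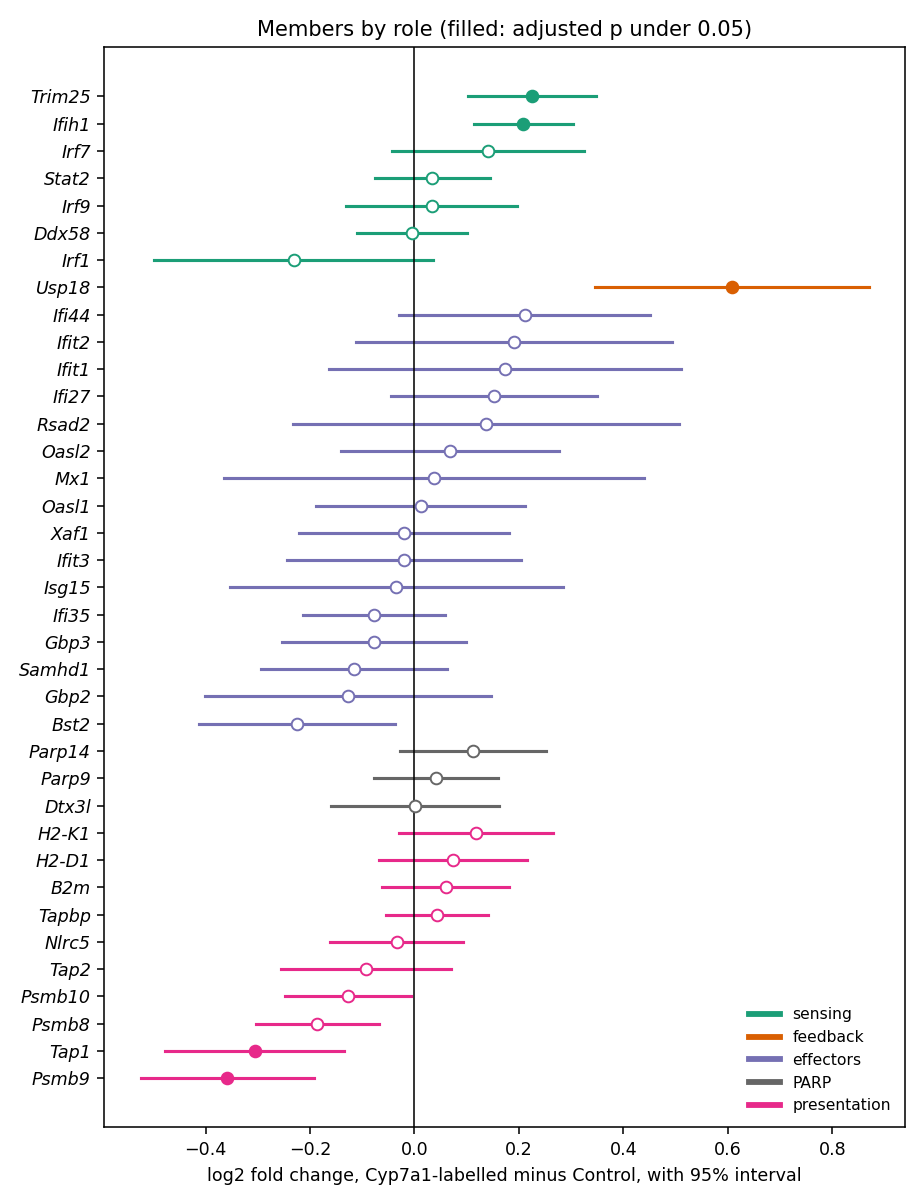
Each row is a member, grouped by role from top to bottom, with its log2 fold change (Cyp7a1-labelled minus control, x axis) as a point and the 95% interval of limma as a line; filled points are past the threshold. Usp18, at 0.61, lies farthest to the right, Psmb9 and Tap1 at the bottom lie farthest to the left, and the intervals of most effectors span 0.

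Usp18 encodes a protease that strips the ubiquitin-like protein ISG15 from its targets and also binds the type I interferon receptor and dampens its signal. The gene (ENSMUSG00000030107) lies on chromosome 6, 121245906 to 121270917 on mm10, plus strand. It had 278 normalized counts in the lowest, 367 at the median and 431 in the highest Cyp7a1-labelled liver, against 172, 239 and 337 in control livers. Of the 8 Cyp7a1-labelled livers, 6 lay above every control liver, and Control 7 was the highest control while Control 38 and Control 20 were the lowest. Means were 364 ± 52.2 in Cyp7a1-labelled and 241 ± 53.4 in control livers (SD, n = 8 each), and the fold change on the log scale was 1.52 (log2 fold change 0.61, 95% interval 0.34 to 0.87, limma adjusted p = 0.00883). In the annotation, 124 exonic bases of Usp18 overlap a non-coding RNA on the other strand, whose reads cannot be told apart without the strand setting. In whole tissue, fewer cells of a type and less RNA per cell cannot be told apart, here and in what follows.

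Ifih1 encodes MDA5, the cytosolic receptor for long double-stranded RNA. The gene (ENSMUSG00000026896, chromosome 2, 62595798 to 62646255, minus strand) ranged from 759 to 900 normalized counts with a median of 820.5 in Cyp7a1-labelled livers, against 660.4 to 748 with a median of 712 in control livers. The ranges do not touch, and Ifih1 was the 1 member of 37 of which this was true. Of all genes tested, 0.507% were higher without overlap and 1.04% did not overlap in either direction. The difference was narrow in size, with means of 818 ± 46.6 in Cyp7a1-labelled and 708 ± 37.2 in control livers (SD, n = 8 each; log2 fold change 0.21, 95% interval 0.11 to 0.30, limma adjusted p = 0.0114).

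Trim25 encodes a ubiquitin ligase that assists RIG-I, the receptor for short viral RNA. It lies on chromosome 11, 88999376 to 89020293. Cyp7a1-labelled livers spanned 2409 to 2862 normalized counts (median 2683), against 1995 to 2707 (median 2237) in control livers, and the groups overlapped through Control 12 and Control 25, the highest controls. All 8 Cyp7a1-labelled livers were above the control mean (log2 fold change 0.23, 95% interval 0.10 to 0.35, limma adjusted p = 0.0292). The call ended when libraries were scaled to equal totals (adjusted p = 0.0542) and without Cyp7a1 17, Cyp7a1 19, Cyp7a1 28 or Control 38 (highest 0.0634).

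**Figure D2:**
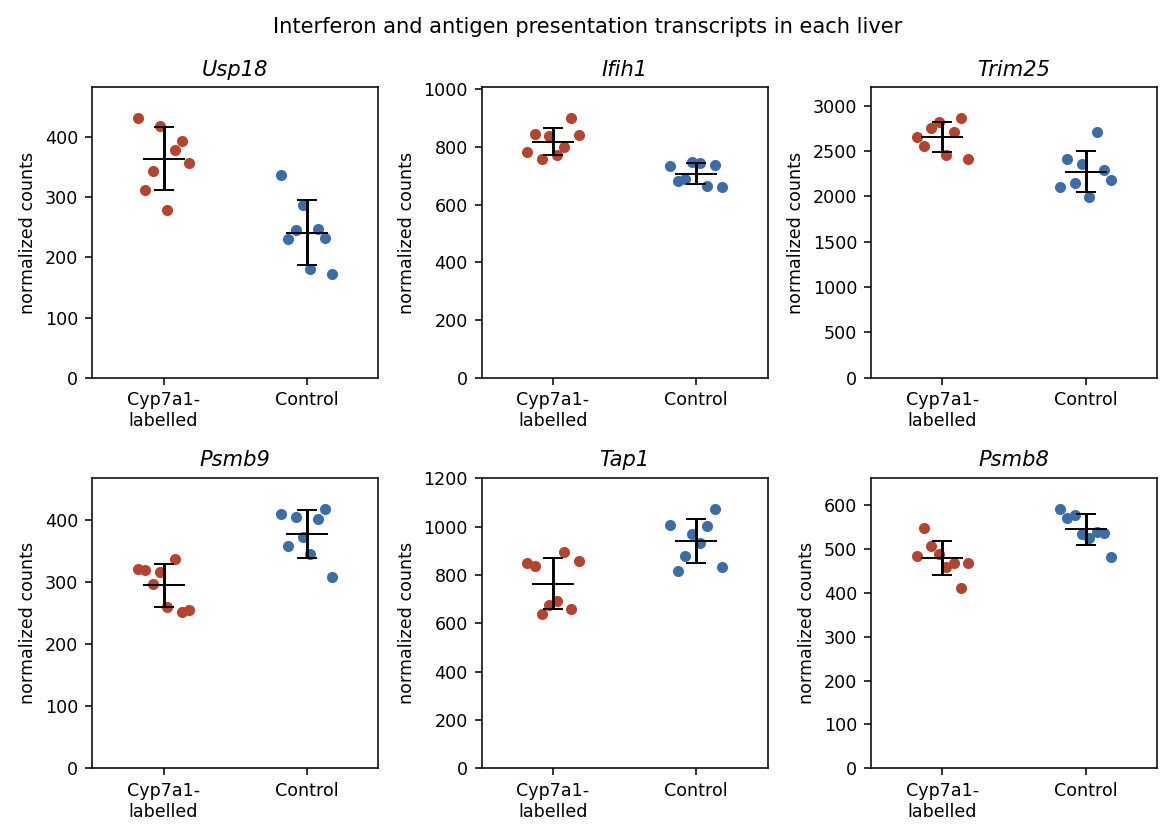
Normalized counts (y axis, from 0) of 6 members in each liver, Cyp7a1-labelled livers on the left and control livers on the right; the bars give the mean and SD of 8 livers. Ifih1 separates the groups without overlap, Usp18 is higher in Cyp7a1-labelled livers with 6 points above every control, and the presentation genes Psmb9, Tap1 and Psmb8 are lower there with overlap, Psmb8 without passing the threshold.

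The other 5 genes of sensing and signalling did not pass. Ddx58, which encodes RIG-I, had 706 ± 30.2 normalized counts in Cyp7a1-labelled and 710.1 ± 56.0 in control livers (SD, n = 8 each). Stat2 and Irf9, partners in the type I signal, had log2 fold changes of 0.03 (95% interval -0.08 to 0.14) and 0.03 (-0.13 to 0.20). Irf7, the factor that amplifies interferon production, had 819 to 1339 normalized counts in Cyp7a1-labelled and 907 to 1149.6 in control livers, with 6 of the 8 Cyp7a1-labelled livers above every control and Cyp7a1 24 below them all (log2 fold change 0.14, limma adjusted p = 0.398). Irf1, the factor most tied to interferon gamma, had the opposite sign, with a log2 fold change of -0.23 (95% interval -0.50 to 0.04, adjusted p = 0.325), and Cyp7a1 17 and Cyp7a1 19 below the control range.

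Among the effectors, the Ifit proteins bind foreign RNA, ISG15 is conjugated to other proteins, Rsad2 (viperin) makes a chain-terminating nucleotide, and the Oasl and Mx proteins interfere with viral replication. Ifit1 averaged 235 ± 37.6 normalized counts in Cyp7a1-labelled and 214 ± 64.6 in control livers. Isg15 averaged 85.1 ± 16.9 and 88.1 ± 20.9 in the same order of groups (log2 fold change -0.03, 95% interval -0.35 to 0.28). Rsad2 ranged from 217 to 397 in Cyp7a1-labelled and from 159.7 to 394 in control livers. The 95% interval of the log2 fold change was -0.16 to 0.51 for Ifit1 and -0.23 to 0.51 for Rsad2.

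The effectors with the smallest p were Bst2 and Ifi44. Bst2 encodes tetherin, which holds budding virus at the cell surface. It had 1487 ± 168 normalized counts in Cyp7a1-labelled and 1745 ± 257 in control livers (SD, n = 8 each; log2 fold change -0.22, limma adjusted p = 0.154), and it passed without Control 38 (adjusted p = 0.0473). Ifi44 had 94.9 ± 8.33 and 83.02 ± 15.5 (log2 fold change 0.21, adjusted p = 0.316), Cyp7a1-labelled livers first. The remaining effectors had log2 fold changes between -0.13 for Gbp2 and 0.19 for Ifit2, with 8 of the 16 above 0. The ADP-ribosylation genes Parp14, Parp9 and Dtx3l, which form a small interferon-induced chromatin and signalling group, had log2 fold changes of 0.11, 0.04 and 0.0003. Parp9 and Dtx3l share 458 exonic bases on opposite strands, so their reads may be exchanged.

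Of the 10 antigen presentation members 2 were lower and 0 higher by limma. An unadjusted p under 0.05 was found for 4 of them, beside 2589 of all 12617 genes tested. Class I molecules show peptides that a modified proteasome cuts, in which the induced subunits Psmb8, Psmb9 and Psmb10 replace constitutive ones, and that the transporter Tap1-Tap2 carries to the endoplasmic reticulum, where tapasin (Tapbp) helps load them onto H2-K1 or H2-D1 with B2m. The cutting and transport genes Psmb9, Tap1, Psmb8, Psmb10 and Tap2 had log2 fold changes from -0.36 to -0.09, and Psmb9 and Tap1 passed. The loading and display genes Tapbp, B2m, H2-D1 and H2-K1 had log2 fold changes from 0.04 to 0.12, and 0 of the 4 passed by limma, edgeR or DESeq2 or had an unadjusted p under 0.05 in any of them. The difference between these groups of genes, drawn after the values were seen, was not tested. Other loading genes outside the set lay below 0, with log2 fold changes of -0.32 for the chaperone calreticulin (Calr), -0.17 for Pdia3, -0.15 for Tapbpl and -0.08 for Canx (limma adjusted p from 0.0551 for Calr to 0.536 for Canx).

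Psmb9 (ENSMUSG00000096727) lies on chromosome 17, 34181987 to 34187764, minus strand. It had 252 to 338 normalized counts (median 307) in Cyp7a1-labelled livers, against 309 to 418 (median 388) in control livers. All 8 Cyp7a1-labelled livers were under the control mean and 4 were under every control liver. Means were 295 ± 34.3 in Cyp7a1-labelled and 378 ± 38.3 in control livers (SD, n = 8 each; log2 fold change -0.36, 95% interval -0.52 to -0.19, limma adjusted p = 0.0126).

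Tap1 (ENSMUSG00000037321) is its neighbour, at 34187553 to 34197225 on the plus strand. It had 639 to 894 normalized counts (median 765) in Cyp7a1-labelled livers, against 815 to 1073 (median 952) in control livers. Again 8 of 8 Cyp7a1-labelled livers were under the control mean and 4 under every control (log2 fold change -0.31, 95% interval -0.48 to -0.13, limma adjusted p = 0.0348). The call ended with equal totals (adjusted p = 0.0538) and without any of 8 libraries, Cyp7a1 17, 19, 24 and 28 and Control 7, 16, 25 and 35 (highest 0.0733, without Cyp7a1 28). The exons of Psmb9 and Tap1 share 212 bases on opposite strands in the annotation. Without the strand setting, their counts may not be fully separate measurements.

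The RefSeq starts of Psmb9 and Tap1 face away from each other across 225 bases, shown here because it lies between the starts of both members that fell (chr17:34187331-34187555, GRCm38.p6, plus strand, the Psmb9 start just before its left end and the Tap1 start just after its right end). Capitals mark the 1 GC box, GGGCGG or CCGCCC on the other strand, the element bound by Sp1.
Psmb9-Tap1: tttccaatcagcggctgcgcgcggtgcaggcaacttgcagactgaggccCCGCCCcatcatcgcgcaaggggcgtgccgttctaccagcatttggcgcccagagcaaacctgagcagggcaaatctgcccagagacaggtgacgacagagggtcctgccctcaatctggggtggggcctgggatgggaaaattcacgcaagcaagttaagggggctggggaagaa
A longer transcript of Psmb9 in GENCODE also reaches across it. The stretch held 0 matches to a pair of GAAA runs with 2 bases of any kind between them (a pair of TTTC runs on the other strand), letters of the interferon-stimulated response element. A GC box occurs in 38.2% of the 27025 genes with a RefSeq promoter window of 300 bases.

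Promoter windows, 250 bases before to 50 after the RefSeq start, were found for 30 of the 37 members. Of these, 11 held the paired GAAA or TTTC runs of the response element on either strand, where 3.99% of all genes with a window did. Among the members that moved, windows were found for Ifih1, Trim25, Psmb9 and Tap1, and Ifih1 was the 1 with a response element match. The sites below set Ifih1 beside 3 members with a match that did not pass the threshold, with capitals on 1 match each. Isg15 held 3 overlapping matches and Ifit1 held 2.
Ifih1: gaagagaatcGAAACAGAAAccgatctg
Isg15: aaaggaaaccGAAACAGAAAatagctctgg
Ifit1: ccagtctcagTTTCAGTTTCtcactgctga
B2m: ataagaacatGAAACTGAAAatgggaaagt
The Ifih1 match begins at base 33 of the transcript (chr2:62646206-62646233, minus strand), and those of Isg15 (chr4:156200865-156200894, minus strand), Ifit1 (chr19:34640794-34640823, plus strand) and B2m (chr2:122147538-122147567, plus strand) lie 66, 85 and 139 bases before the start, all on GRCm38.p6. The capitals of Ifih1 and Isg15 are the same 10 letters. A match is a run of letters and not a measured binding site.

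The induced proteasome subunits can be set beside the constitutive subunits they replace, a comparison chosen after the values were seen. The Psmb9 ratio uses the same Psmb9 counts already called lower, so its p is not separate evidence. Adjustment over 3 pairs does not cover that choice. The ratio of Psmb9 to Psmb6 was 0.1698 ± 0.0203 in Cyp7a1-labelled and 0.208 ± 0.0261 in control livers (SD, n = 8 each), lower in 8 of 8 Cyp7a1-labelled livers than the control mean (two-sided exact permutation p = 0.00668, adjusted over 3 pairs p = 0.02005). That of Psmb8 to Psmb5 was 0.950 ± 0.123 and 1.016 ± 0.0487, Cyp7a1-labelled livers first (exact permutation p = 0.162, adjusted p = 0.162). That of Psmb10 to Psmb7 was 0.1795 ± 0.0164 and 0.197 ± 0.0214 in that order (exact permutation p = 0.0859, adjusted p = 0.129). Psmb6 itself had a log2 fold change of -0.07, Psmb5 of -0.08 and Psmb7 of 0.0069.

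Psmb8 (chromosome 17, 34197721 to 34201454) was just outside the threshold, with 412 to 547 normalized counts in Cyp7a1-labelled and 482 to 591 in control livers (log2 fold change -0.19, 95% interval -0.30 to -0.07, limma adjusted p = 0.0570). It passed by DESeq2, without Cyp7a1 5 and without Control 38. It shares 498 exonic bases with an antisense gene. Nlrc5, the activator of class I genes, had 493 ± 36.4 and 505.01 ± 44.8 (SD, n = 8 each), Cyp7a1-labelled livers first.

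Per kilobase of annotated exon, the levels of the members spanned a wide range. B2m had 41389 normalized counts per kilobase in Cyp7a1-labelled and 39774 in control livers, H2-K1 9326 and 8562, H2-D1 4219 and 4019, and Bst2 1647 and 1932, in the same order of groups. The lowest was Mx1, with 10.2 and 10.6. H2-K1, H2-D1 and other class I genes are similar in sequence, so reads may be split among them, and the same holds for Ifit3 and Ifit3b.

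The members also differed in how much they varied between livers of 1 group. With group means removed, the within-group SD on the log2 scale was 0.079 for Ifih1, the lowest, and 0.398 for Mx1, the highest, with a median of 0.169 over the 37 members and 0.174 over all genes tested. Livers high in 1 interferon gene tended to be high in the others. Over 16 livers, with group means removed, Pearson's r with the mean of the other interferon members was 0.89 for Ifit1, 0.80 for Mx1, 0.79 for Xaf1 and 0.77 for Rsad2, and Spearman's rho was 0.79, 0.80, 0.85 and 0.77 for the same genes. It was above 0.5 for 17 of the 27 interferon members and for 3.38% of all genes, and Irf1 (r = -0.07) and Nlrc5 (r = -0.24) did not follow. These correlations share libraries and depth and are descriptions without a test. Usp18 varied with the others between livers of a group (r = 0.72, rho = 0.68). Ifih1 (r = 0.34, rho = 0.33) and Trim25 (r = 0.25, rho = 0.12), also called higher, followed less closely. Whether the difference of Usp18 between the groups exceeded that of the other interferon members was not tested.

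**Figure D3:**
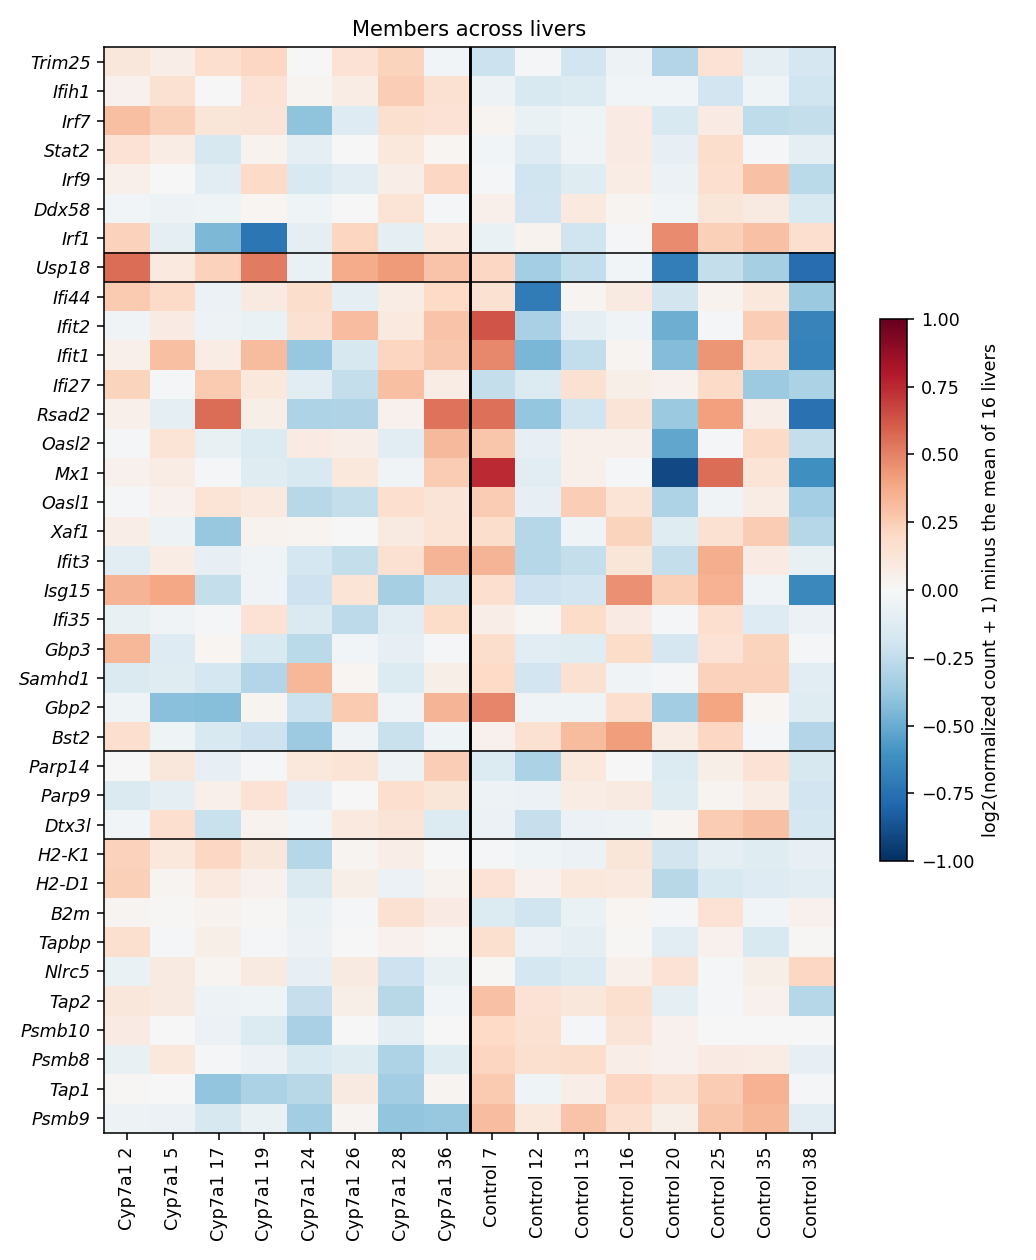
Rows are the 37 members by role and columns the 16 livers, Cyp7a1-labelled livers left of the vertical line and control livers right of it; colour gives log2(normalized count + 1) minus the gene's mean over 16 livers. Control 12, Control 20 and Control 38 are blue across many effectors while Control 7 and Control 25 are red, Usp18 is red in 7 Cyp7a1-labelled livers, and the darkest blue cells of Tap1 and Psmb9, the bottom rows, lie left of the line.

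The mean of the 27 interferon members outside antigen presentation, each centred on its mean over all livers, ran from -0.099 in Cyp7a1 24 to 0.147 in Cyp7a1 36, against -0.290 in Control 38 to 0.163 in Control 25 on the log2 scale. The lowest 3 livers were Control 38, Control 12 and Control 20, so the control livers spanned the wider range. The within-group SD was smaller in the Cyp7a1-labelled group for 19 of 27 interferon members, beside 54.9% of all genes. Without Control 38, an alternative chosen after seeing the data, it was smaller for 18 of 27, beside 52.5% of all genes. Without Cyp7a1 24 it was smaller for 20 of 27, beside 61.6% of all genes. With both livers left out it was smaller for 20 of 27, beside 58.8%. Depth moves with part of this, since Control 38 held 13.8 M reads, while Control 12 and Control 20 held 20.5 and 21.2 M. Its part was not tested.

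Other genes of the pathway, listed by name with earlier results of these data known, came to 157 in the table of 184 listed, with 3 higher and 6 lower by limma. That is 5.73% called, near the 6.12% of all genes. In the 86 other interferon-induced genes 0 were higher and 3 lower, or 3.49% lower beside 3.05% of all genes, and 52 had a log2 fold change below 0, or 60.5% beside 49.1% of all genes. Ifitm2, a membrane protein that blocks viral entry, had 1308 to 1680.2 normalized counts in Cyp7a1-labelled livers and 1724 to 1981 in control livers. The groups did not overlap, as was true of 0.531% of all genes in that direction (log2 fold change -0.34, limma adjusted p = 0.000853). Gbp2b, a guanylate-binding protein, had 33.8 ± 16.0 and 66.3 ± 18.3 (SD, n = 8 each), Cyp7a1-labelled livers first (log2 fold change -1.01, adjusted p = 0.0130). Plscr2, a phospholipid scramblase family gene, had a log2 fold change of -0.24 (adjusted p = 0.0287), and its call ended without any of 4 libraries.

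Of 11 receptors, receptor kinases and their regulators, 0 passed by limma, edgeR or DESeq2, and 0 had an unadjusted p under 0.05 in any of them, with Ptpn6 at a log2 fold change of 0.16 and Ptpn2 at 0.08, both phosphatases that restrain JAK kinases. The interferon genes looked for, Ifnb1, Ifna4, Ifna2, Ifng, Ifnl2 and Ifnl3, were not found by symbol among the genes tested. In nucleic acid sensing and its relays, 3 of 20 (15.0%) were lower and 0 higher, all near the threshold, beside 3.05% of all genes. Irf2, a factor related to Irf1, had 1711 ± 302 normalized counts in Cyp7a1-labelled and 2345 ± 508 in control livers (SD, n = 8 each; log2 fold change -0.44, adjusted p = 0.0480). The adaptor Traf3 (-0.30, adjusted p = 0.0486) and the kinase Irak1 (-0.14, adjusted p = 0.0490) were also lower. Leaving out 1 library ended the call of Irf2 and Traf3 for 12 of 16 libraries each and that of Irak1 for 13. By edgeR 1 of the 3, Irf2, passed.

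Of 29 other genes listed under class I presentation 3 (10.3%) were higher and 0 lower by limma, beside 3.07% and 3.05% of all genes. The list also holds the constitutive subunits Psmb5, Psmb6 and Psmb7 and class I-like genes such as Hfe. By DESeq2, which called more genes than limma, 1 was lower, Calr, with 15649 ± 1561 normalized counts in Cyp7a1-labelled and 19665 ± 3426 in control livers (SD, n = 8 each; limma adjusted p = 0.0551). H2-Q1, a nonclassical class I gene, had 552 to 1012 normalized counts in Cyp7a1-labelled livers, against 161 to 564 in control livers, and the groups overlapped at the edge alone. Means were 799 ± 136 in Cyp7a1-labelled and 361 ± 143 in control livers (SD, n = 8 each), and the fold change on the log scale was 2.34 (log2 fold change 1.23, limma adjusted p = 0.00246). Hfe, the class I-like protein of iron sensing, had a log2 fold change of 0.26 (adjusted p = 0.0164), a call that ended with equal totals (0.0542). H2-T23 had 0.24 (adjusted p = 0.0491), a call that ended without any of 13 libraries. Class I genes of this family are similar in sequence, so these levels are uncertain.

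Class II molecules present peptides taken up from outside, mainly on professional presenting cells. Of their 11 genes 0 passed by limma or by edgeR and 1, Cd74, passed by DESeq2. By limma 6 had an unadjusted p under 0.05, beside 2589 of all 12617 genes tested. All 11 log2 fold changes were below 0, beside 49.1% of all genes, with a median of -0.32. Cd74, the invariant chain, had 1995 to 3422 normalized counts (median 2755) in Cyp7a1-labelled livers and 2208 to 4888 (median 3555) in control livers. The ranges overlapped widely (log2 fold change -0.40, 95% interval -0.69 to -0.11, limma adjusted p = 0.0958), and the adjusted p was 0.0324 with array weights and 0.0408 by DESeq2. H2-DMb1, which helps exchange class II peptides, had a log2 fold change of -0.32 (adjusted p = 0.143). Ciita, the master activator of class II genes, averaged 53.6 ± 18.2 and 77.8 ± 22.7 (SD, n = 8 each), Cyp7a1-labelled livers first. Apart from the general factors Rfx5, Rfxap and Rfxank, these genes are largely expressed by the same cells. The 11 are therefore not independent observations.

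**Figure D4:**
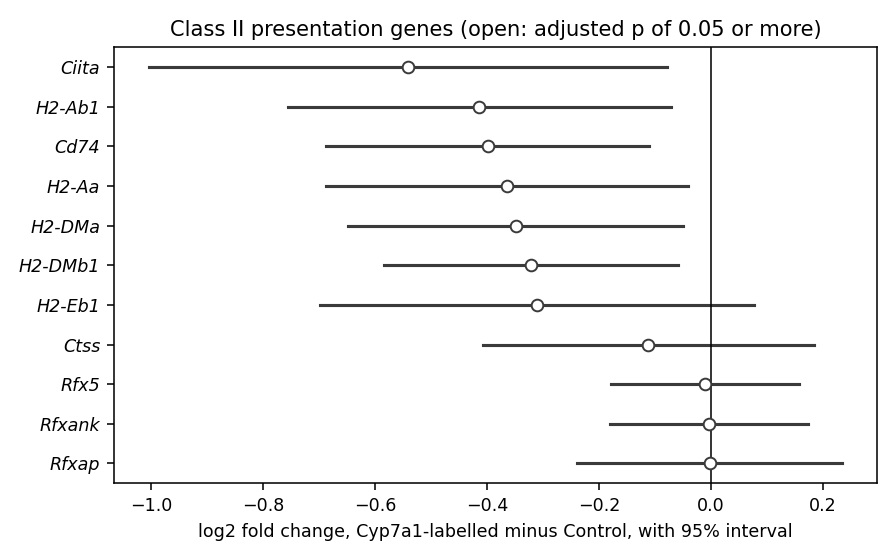
Each row is a class II presentation gene found in the table, with its log2 fold change (Cyp7a1-labelled minus control, x axis) and the 95% interval of limma. All 11 points lie left of 0 and all are open, since none passed the adjusted threshold; Rfx5, Rfxank and Rfxap, general factors of class II transcription, lie within 0.012 of 0.

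Markers of the cells that carry these transcripts were counted beside them. Summed normalized counts of 12 Kupffer cell markers were 8215 to 28227 (median 10998) in Cyp7a1-labelled livers and 9234 to 15795 (median 10864) in control livers, with Cyp7a1 24 the highest. Those of 9 recruited macrophage markers were 2962 to 7118 and 2411 to 7278, Cyp7a1-labelled livers first here and below. Those of 4 dendritic cell markers were 404 to 611 and 392 to 658. Those of 4 lymphocyte and leukocyte markers, Cd4, Cd79b, Ighm and Ptprc, were 334 to 1655 and 345 to 927. Sinusoidal endothelial markers summed to 12877 to 17386 and 14728 to 17988 in the same order. Of these lists, the neutrophil list and the stellate cell list, 0 markers passed by limma or edgeR. The marker with the smallest p was Cd163, a Kupffer cell scavenger receptor, with a log2 fold change of 0.66 (limma adjusted p = 0.0510), and it alone passed by DESeq2. Of the 12 Kupffer cell markers 8 had a log2 fold change above 0 and 4 below, the lowest being Folr2 at -0.24. The dendritic cell markers with the smallest p were Zbtb46 (-0.25) and Clec9a (0.33), of opposite sign. Of the 11 sinusoidal endothelial markers 8 had a log2 fold change below 0, or 72.7% beside 49.1% of all genes, and 3 above. By limma 3 had an unadjusted p under 0.05, beside 2589 of all 12617 genes tested. They were Eng (-0.12), Lyve1 (0.46) and Kdr (-0.18). Without Cyp7a1 24, the log2 fold change of Psmb9 was -0.33 and that of Usp18 was 0.66, while the call of Tap1 ended. Leaving out 1 liver does not measure the share of any cell type. Among T cell markers Cd4 was in the lymphocyte and leukocyte sum (log2 fold change -0.10). Cd3e and the plasmacytoid dendritic cell marker Siglech were not found by symbol among the genes tested. The part of these cell types in the values above, those of Psmb9 and Usp18 among them, was not tested.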

How the data were processed

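The authors deposited normalized counts per gene and library, a signal with reads divided by a size factor, for 12618 genes and 16 libraries. The build mm10 and the tools STAR 2.7.11a, Trim Galore 0.6.10, R 3.6.3, DESeq2 and featureCounts are named, with no role or order, per the submitters' processing notes. Annotation, strand setting and gene filter were not given in the sources used here. Ccne2 was left out because 1 cell held text, and 19 symbols turned into dates were restored from their gene IDs.

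Values plus 1 were log2-transformed and tested two-sided with limma 3.58.1 (trend option, R 4.3.3), with Benjamini-Hochberg adjustment over 12617 genes. A minimum mean of 10 removed no gene, since the lowest gene mean was 13.3. Whole reads were recovered for 99.94% to 99.99% of values per library (tolerance 0.05 reads). On them edgeR 4.0.16 called 381 higher and 379 lower genes and DESeq2 1.42.0 called 548 and 573. The steps were tested on simulated data. Leaving out each library, array weights, 2 other scalings, another pseudocount and other filters were also tried.

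The members, gene lists and tests were chosen with earlier results of these data known. Members past the threshold and the 2 with the smallest p in each role were named with full values, and of the other lists up to 4 past the threshold or 2 where none passed. Irf7, Ddx58, Psmb8, the proteasome ratios and other items outside this rule were named after their values were seen. Gene coordinates and exons are those of GENCODE M21 and promoter sequences those of RefSeq on GRCm38.p6. The depth limits the precision of low genes most, and intervals come from the spread between livers.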

Additional observations from a re-analysis of the deposited data

Results flagged for a closer look

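Dixon's test at its 95% critical value marked 1 liver as distant from the rest in 4 of the 74 sets of 8 livers looked at, where chance gives about 1 in 20, or 3.7. All 4 were Cyp7a1-labelled. Ddx58 had 775 normalized counts in Cyp7a1 28, with the next highest at 716. Xaf1, an interferon-induced gene, had 119.6 in Cyp7a1 17, with the next lowest at 150.1. Gbp3, a guanylate-binding protein, had 286 in Cyp7a1 2, with the next highest at 229. H2-K1 had 21412 in Cyp7a1 24, with the next lowest at 26161.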

How the results depend on the processing

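Usp18, Ifih1 and Psmb9 kept their calls under each of the 8 alternatives and without any 1 of the 16 libraries, with adjusted p up to 0.0283 for Ifih1, 0.0220 for Usp18 and 0.0302 for Psmb9. The count of higher members was 2 to 3 in all settings. That of lower members was 1 with equal totals and 1 to 4 with 1 library left out, the 4 being Bst2, Psmb8, Psmb9 and Tap1 without Control 38. Other pathway genes gave 10 lower ones by DESeq2, and 2 to 9 lower and 2 to 3 higher ones with 1 library left out. The median SD of the members between livers was 0.160 to 0.174 with 1 library left out. Of the 22 genes followed through these alternatives, 0 reversed, and other named genes were not followed. DESeq2 called more genes than limma or edgeR. Its lower calls of Psmb8, Cd74, Calr, Gbp10 and Plscr1 and its higher call of Cd163 were not made by edgeR. Nor were they made by limma with all libraries weighted equally. The limma log2 fold change was -0.68 for Gbp10 and -0.40 for Plscr1, both of the other interferon-induced genes. No paired analysis was possible because the groups share no replicate numbers. Fold changes use log2(value + 1) and understate changes of low genes such as Mx1 and Gbp2b.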

Other observations

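The 10 genes outside the set that followed the mean of the interferon members most closely over 16 livers, group means removed, included 5 that belong to the pathway lists, Cmpk2, Irgm1, Ifit3b, H2-T24 and Gbp6. Pearson's r was 0.83 for Cmpk2, the partner gene of Rsad2, 0.79 for the GTPase Irgm1 and 0.77 for Ifit3b. The other 5 were Nadk (0.83), Clec9a (0.82), Gtf2h3 (0.80), E2f1 (0.76) and Bloc1s6 (0.76). Clec9a encodes a receptor of conventional dendritic cells and was in the list of dendritic cell markers. Flt3, Zbtb46 and Irf8, the other markers of that list found, were not among the 10. The 10 genes were picked for the highest values, which are descriptions without a test.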
